A study of Mus musculus with 48 samples.

Results

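Necroptosis is a lytic form of cell death that runs in parallel with apoptosis downstream of death receptors. Ripk1, a kinase recruited to the TNF receptor, and Zbp1, a sensor of Z-form nucleic acids that was first described as an interferon-induced gene, both hand the signal to the kinase Ripk3 through a shared interaction motif. Ripk3 then phosphorylates Mlkl, a pseudokinase that permeabilizes the plasma membrane. The adaptor Fadd, the protease Casp8 and its catalytically inactive relative Cflar form the other arm, in which Casp8 starts apoptosis and, paired with Cflar, cleaves the necroptosis kinases. These 7 genes (Ripk1, Ripk3, Mlkl, Zbp1, Casp8, Cflar and Fadd) were taken by symbol from a table of 49568 genes, and all 7 were present in 1 line each and passed the filter on low counts in every fit.

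The cells were RAW264.7, a mouse macrophage line grown in DMEM and treated for 72 h, with the medium refreshed at 48 h. The 8 groups were PBS, the 15-mer peptides LE (65-79*0301, the sequence of the lupus risk allele), SE (65-79*0401, of a rheumatoid arthritis risk allele) and PE (65-79*0402, of a protective allele) at 100 µg/ml, IFN-γ (IFNy) at 5 ng/ml, and each peptide with IFN-γ (LE+IFNy, SE+IFNy, PE+IFNy). Each group had 6 mRNA libraries, of which 3 carried a letter label and 3 an HLA label, and the members are described in the 24 letter-labelled libraries. All libraries come from 1 line, and RNA was read from the whole culture, so fewer cells expressing a gene and less RNA per cell cannot be told apart.

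The letter-labelled libraries held 16.5 M to 26.9 M counts (M for mega, median 22.9 M). The score of 18 genes that IFN-γ induces, a mean of log2(CPM + 1) with CPM as counts per mega of the library's total, was 2.37 to 2.49 in the 12 letter-labelled libraries labelled without IFN-γ and 6.22 to 6.58 in the 12 labelled with it, so 0 of 24 went against the label. Among the HLA-labelled libraries the score and the label disagreed in 12 of 24. In the deposited table the columns of all 24 follow letter columns of a group other than their own label, so the table's order and the labels give different groups. The labels were kept and the order was not used, so every value given for an HLA-labelled group holds only if its label is right. These libraries were therefore kept out of the comparisons, and each comparison was rerun with them as an alternative. The 10 macrophage markers summed to 7554 to 13806 CPM, and this sum was lower with IFN-γ (7554 to 9967) than without it (10902 to 13806). Lyz2 alone was at 5620 CPM with PBS and at 3794 CPM with IFN-γ. By the rule given below, 1 of 9 tested markers was called higher for IFN-γ against PBS (Adgre1, log2 0.77) and 1 lower (Tyrobp, -0.60), beside 18.1% of all genes. By adjusted p alone 1 was higher and 5 were lower. The 8 osteoclast markers summed to 414 to 513 CPM without and 147 to 237 CPM with IFN-γ, and the part of this shift in the results below was not tested. The 6 T cell markers summed to 10 to 29.0 CPM, and 5 of them were at 3 counts or fewer in every library (Cd8a at 0), the 5 B cell markers summed to at most 0.346 CPM (Ms4a1 at 0), the 6 fibroblast markers to at most 1.88 CPM and the 5 epithelial markers to at most 0.667 CPM (Epcam and Cldn4 at 0).

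On GRCm38, Ripk3 lies at chr14:55784995-55788865 on the minus strand, Mlkl at chr8:111311797-111338177 (minus), Zbp1 at chr2:173206612-173218923 (minus), Ripk1 at chr13:34002363-34037147 (plus) and Fadd at chr7:144577318-144582463 (minus). Cflar (chr1:58711508-58758884) and Casp8 (chr1:58795374-58847503) are neighbours on the plus strand. All 7 are protein coding, and counts cover their exons. Ripk1 overlaps Serpinb6a on the opposite strand by 432 bases, and Serpinb6a held 4006 to 9558 counts per library. The sources used here do not state whether counting used strand, so reads in that overlap could belong to either gene.

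RefSeq promoter windows (GRCm38.p6, 250 bases before to 50 after a start) were found for 6 of the 7 genes, all but Zbp1. They were searched on both strands for the gamma-activated site TTCNNNGAA, an element found in promoters of IFN-γ-responsive genes, and for the core of the interferon-stimulated response element, the kind that IRF proteins bind. The first occurs in 8.30% and the second in 3.44% of 32851 such windows. The windows of Mlkl (chr8:111338156-111338455, minus) and Ripk3 (chr14:55788808-55789107, minus), which are shown because both genes rose with IFN-γ, held neither. The window of Cflar (chr1:58711241-58711540, plus) held the response element core at base 6 from the start (the start is 0). That of the downstream start of Ripk1 (chr13:34002624-34002923, plus) held gamma-activated sites at -108 and -11 and a response element core at -5, which overlaps the second of them. Casp8, Fadd and the upstream start of Ripk1 held neither. Capitals mark the matches, which are descriptions of letters and not of binding.
Mlkl: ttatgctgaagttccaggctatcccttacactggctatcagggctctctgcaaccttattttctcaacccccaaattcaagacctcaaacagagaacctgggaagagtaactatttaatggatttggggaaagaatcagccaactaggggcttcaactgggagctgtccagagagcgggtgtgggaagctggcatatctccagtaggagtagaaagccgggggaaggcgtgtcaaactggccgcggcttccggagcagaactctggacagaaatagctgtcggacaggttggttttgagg
Ripk3: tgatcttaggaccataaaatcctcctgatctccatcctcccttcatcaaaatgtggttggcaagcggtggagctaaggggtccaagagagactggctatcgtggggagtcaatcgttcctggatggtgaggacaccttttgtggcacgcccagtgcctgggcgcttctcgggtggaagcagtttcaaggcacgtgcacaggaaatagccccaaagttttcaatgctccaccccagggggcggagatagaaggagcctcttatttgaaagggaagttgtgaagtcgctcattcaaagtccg
Cflar: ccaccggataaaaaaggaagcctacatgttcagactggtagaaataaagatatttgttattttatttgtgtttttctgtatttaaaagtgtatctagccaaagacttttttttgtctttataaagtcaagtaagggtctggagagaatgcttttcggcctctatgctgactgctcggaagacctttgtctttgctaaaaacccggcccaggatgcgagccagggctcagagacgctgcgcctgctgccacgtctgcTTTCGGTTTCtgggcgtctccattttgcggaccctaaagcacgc
Ripk1 downstream start: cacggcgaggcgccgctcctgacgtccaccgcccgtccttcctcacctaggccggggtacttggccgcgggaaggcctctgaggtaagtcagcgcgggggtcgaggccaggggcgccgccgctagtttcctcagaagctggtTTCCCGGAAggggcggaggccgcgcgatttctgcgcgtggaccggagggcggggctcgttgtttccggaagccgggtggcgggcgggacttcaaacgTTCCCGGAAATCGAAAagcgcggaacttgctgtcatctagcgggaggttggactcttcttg

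The first question was what IFN-γ alone did to the pathway. Zbp1, Mlkl and Ripk3 rose, and these are the sensor, the membrane effector and the kinase that joins them. A gene was called, and is said to have risen or fallen, when its edgeR quasi-likelihood p, adjusted over all genes tested, was under 0.05 and its fold change over 1.5. By this rule 3 of 7 members were called higher and 0 lower, beside 18.1% of all genes called and 9.79% called higher (39.7% passed the p threshold alone).

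Zbp1 stood at 1.77, 1.77 and 1.83 CPM in the PBS libraries and at 51.5, 49.2 and 58.0 CPM in the IFN-γ libraries. Its values with and without IFN-γ did not overlap in any of the 24 libraries (1.33 to 4.20 CPM against 43.1 to 88.5 CPM). The change was 29.8-fold (log2 fold change 4.90, SE 0.126, edgeR adjusted p 1.47e-10). Raw counts of Zbp1 were 22 to 87 per library without IFN-γ, so its levels there carry a larger counting error than those of the other members.

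Mlkl was at 25.7, 25.1 and 22.6 CPM with PBS and at 54.0, 61.2 and 56.2 CPM with IFN-γ. The groups were well apart, a 2.36-fold change (log2 1.24, SE 0.0896, edgeR adjusted p 9.74e-07). Ripk3 was at 46.0, 52.3 and 51.4 CPM with PBS and at 96.5, 79.9 and 98.6 CPM with IFN-γ, where replicate 2 was the lowest. The change was 1.86-fold (log2 0.89, SE 0.0964, edgeR adjusted p 2.58e-05). Over all 24 libraries, the values of both genes with IFN-γ lay above those without it (44.5 to 65.7 against 22.6 to 32.4 CPM for Mlkl, 73.5 to 101 against 46.0 to 62.4 CPM for Ripk3).

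The other 4 members stayed under the 1.5-fold minimum. Cflar passed the p threshold (log2 0.30, SE 0.0787, edgeR adjusted p 0.00985), from 110 ± 6.85 to 134 ± 13.2 CPM (SD, n = 3). Ripk1 had a log2 fold change of 0.16 (95% interval 0.00868 to 0.312, edgeR adjusted p 0.087), Casp8 of -0.06 (-0.237 to 0.122, 0.615) and Fadd of -0.02 (-0.223 to 0.188, 0.903). With both series pooled as labelled, 0 of 7 members were called in this comparison, beside 1 of 12917 genes (0.00774%), and the Zbp1 change in the HLA-labelled libraries alone was -0.73 (edgeR adjusted p 0.52).

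**Figure D1:**
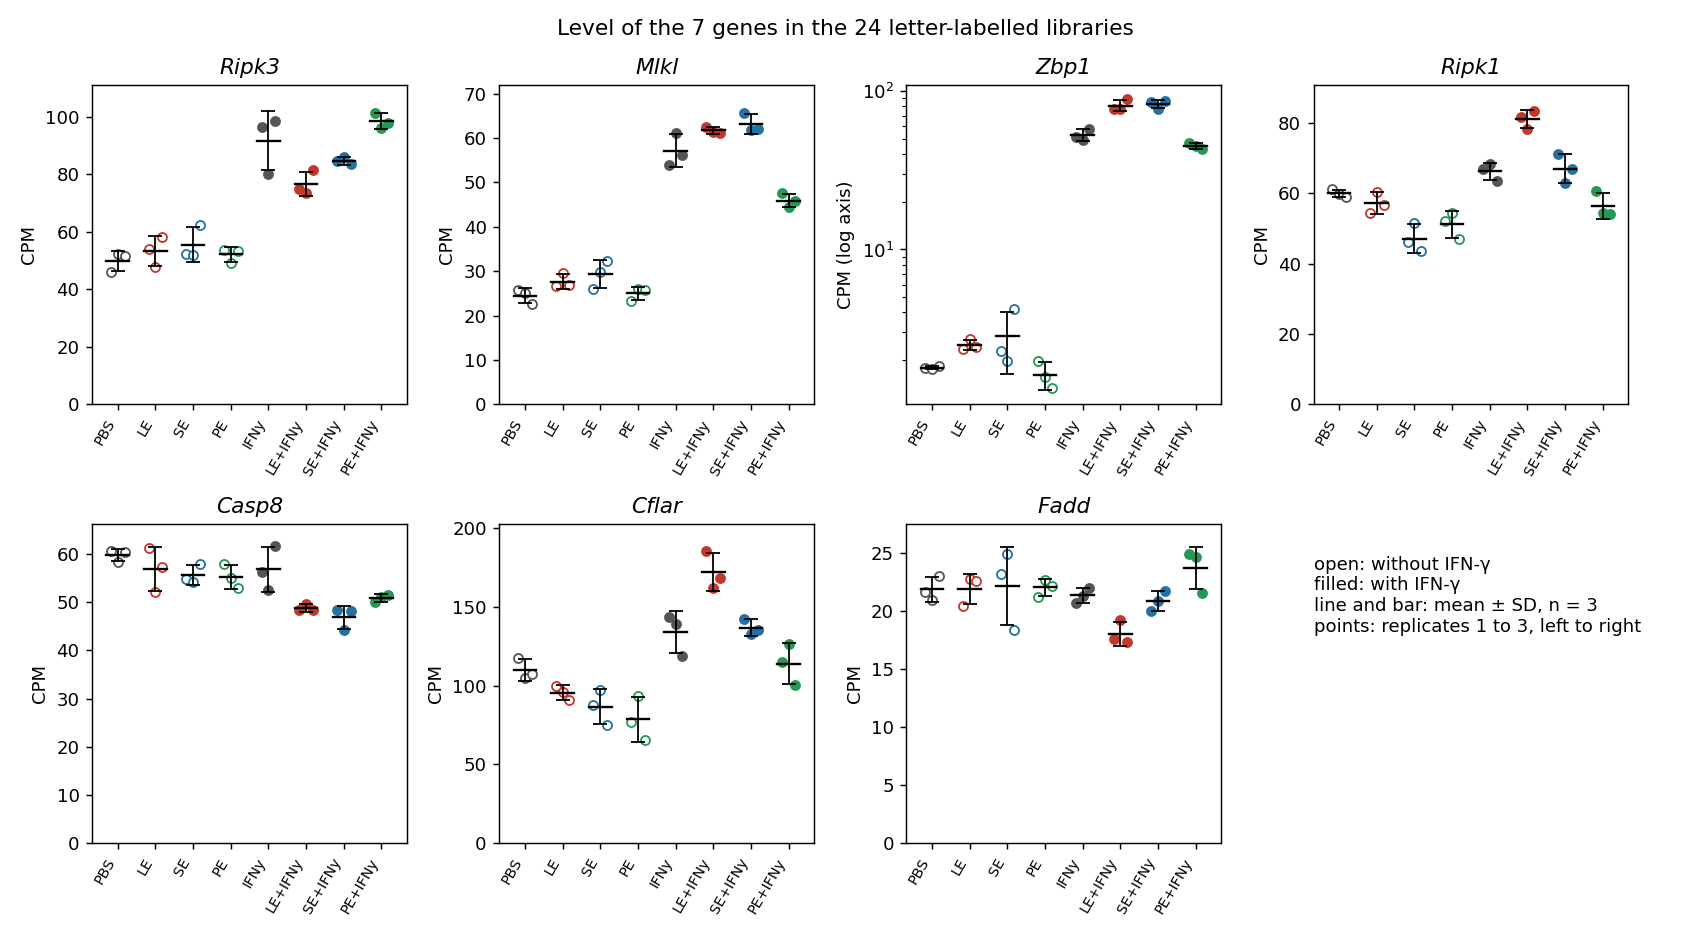
Level of each gene in CPM (vertical axis, linear from 0 except for Zbp1, whose axis is logarithmic) in the 3 letter-labelled libraries of each of the 8 groups (points), with the group mean ± SD (line and bar). Ripk3, Mlkl and Zbp1 separate fully with and without IFN-γ, Cflar and Ripk1 peak in LE+IFNy (162 to 185 and 78.4 to 83.3 CPM), and Fadd is lowest there (17.3 to 19.2 CPM).

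Per length of merged exons, averaged over the 24 libraries, Ripk3 was the most abundant transcript at 30.7 RPKM (counts per kilobase of exon per mega of counts). Casp8 (18.6 RPKM) and Mlkl (18.2 RPKM) followed, then Zbp1 (9.59), Cflar (9.15), Ripk1 (7.28) and Fadd (5.51 RPKM). The merged length counts every annotated exon, 12669 bases for Cflar and 8344 for Ripk1 against 2292 for Ripk3, so the per-length level of a gene with long alternative ends is understated. The order of the group means differed by gene. For Ripk3 it ran PBS, PE, LE, SE, LE+IFNy, SE+IFNy, IFNy, PE+IFNy, and neighbouring groups overlapped except SE with LE+IFNy and LE+IFNy with SE+IFNy. For Mlkl the highest means, IFNy, LE+IFNy and SE+IFNy (57.1, 61.7 and 63.1 CPM), overlapped with their neighbour, and PE+IFNy stood apart below them (44.5 to 47.5 CPM). For Zbp1 LE+IFNy and SE+IFNy overlapped at the top (77.1 to 88.5 and 77.0 to 86.3 CPM), then came IFNy and PE+IFNy (43.1 to 46.7 CPM), each apart from the next.

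The peptides without IFN-γ were set against PBS to ask whether a peptide alone acts. No member was called for LE (0 of 7, 0.0242% of all genes), SE (0 of 7, 1.92%) or PE (0 of 7, 3.13%) by edgeR, while 1, 5 and 1 of them had an unadjusted p under 0.05. The p threshold alone was passed by 0 members with LE (0.0242% of all genes), 2 with SE (14.3%) and 1 with PE (20%). Mlkl was at 25.9, 29.7 and 32.4 CPM with SE, which overlaps the PBS values, and passed the p threshold under the fold minimum (log2 0.33, SE 0.0999, edgeR adjusted p 0.0399). Ripk1 with SE (46.1, 51.7 and 43.5 CPM) was below the PBS libraries (59.0 to 61.1 CPM), and differed from them past the p threshold (log2 -0.28, SE 0.0743, edgeR adjusted p 0.0269). Cflar with PE (77.0, 93.6 and 65.3 CPM) was below its PBS values (105 to 118 CPM), and likewise passed it (log2 -0.40, SE 0.101, edgeR adjusted p 0.0169).

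Zbp1 was at 2.37, 2.71 and 2.41 CPM with LE, above all 3 PBS libraries, with a log2 fold change of 0.52 (95% interval -0.0639 to 1.11, edgeR adjusted p 0.357). With SE it was at 2.28, 1.99 and 4.20 CPM, a log2 fold change of 0.74 (0.155 to 1.32, edgeR adjusted p 0.0799). SE replicate 3 was the highest of its group for Zbp1, Mlkl and Ripk3 and the lowest for Ripk1, Cflar and Fadd. Without replicate 3 in every group the Zbp1 value was 0.34 and that of Mlkl 0.19 (edgeR adjusted p 0.492 and 0.333). In 1 fit of all 8 groups Zbp1 was called for SE (log2 0.75, edgeR adjusted p 0.0149).

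Ripk1 and Cflar are long transcripts, and the change of all genes moved with length. When the genes tested were put into 5 classes by merged exon length, the median log2 fold change with SE against PBS went from 0.20 in the shortest class (up to 2163 bases) to -0.19 in the longest (7251 bases and over). With PE it went from 0.20 to -0.21, and with LE from 0.12 to -0.12. Ripk1 and Cflar belong to the longest class, so their changes stood -0.09 and -0.08 from the class median with SE and 0.07 and -0.18 with PE. The classes were chosen after the values had been seen, lengths come from a later annotation release than the counts, and the part of this trend in the Ripk1 and Cflar values was not tested.

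Model A asks what a peptide adds to IFN-γ, with IFN-γ alone as the reference for all 3 peptides, which therefore share those libraries. Zbp1 rose further with LE and with SE and was not called with PE. Zbp1 was at 77.1, 77.5 and 88.5 CPM in LE+IFNy and at 85.9, 77.0 and 86.3 CPM in SE+IFNy, above the 3 libraries with IFN-γ alone (49.2 to 58.0 CPM), while PE+IFNy lay below them (46.7, 45.2 and 43.1 CPM). The changes were 1.55-fold for LE (log2 0.63, SE 0.0762, edgeR adjusted p 2.42e-06) and 1.60-fold for SE (log2 0.68, SE 0.0763, edgeR adjusted p 2.43e-06). For PE the log2 fold change was -0.21 (95% interval -0.371 to -0.0415, edgeR adjusted p 0.0945). The osteoclast and macrophage marker sums both moved with these calls. The osteoclast sum was 223 to 237 CPM in LE+IFNy, 194 to 212 CPM in SE+IFNy and 147 to 162 CPM in PE+IFNy. With IFN-γ alone it was 149 to 163 CPM, and 3, 3 and 0 of 7 tested markers were called higher. The macrophage sum was 9052 to 9967, 8728 to 8913 and 7554 to 7948 CPM in the same order. With IFN-γ alone it was 7858 to 8590 CPM, and 2, 1 and 0 of 9 tested markers were called higher. The part of both shifts in the Zbp1 result was not tested. Zbp1 was the only member called, 1 of 7 for LE (15.5% of all genes, 9.58% higher), 1 of 7 for SE (7.39%, 5.01% higher) and 0 of 7 for PE (0.629%, with 5 members at an unadjusted p under 0.05). By the p threshold alone it was 6 of 7 for LE, 3 of 7 for SE and 2 of 7 for PE, beside 50.5%, 33.4% and 10% of all genes. Both called values lie close to the fold minimum, and their 95% intervals (0.471 to 0.791 and 0.518 to 0.839) include it.

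The kinases Ripk1 and Ripk3 went in opposite directions with LE, both under the fold minimum. Ripk1 was at 81.6, 78.4 and 83.3 CPM in LE+IFNy against 66.8, 68.4 and 63.6 CPM with IFN-γ alone, with no overlap (log2 0.31, SE 0.0607, edgeR adjusted p 0.000407). Ripk3 was at 74.9, 73.5 and 81.5 CPM against 96.5, 79.9 and 98.6 CPM, where replicate 3 of the first and replicate 2 of the second overlap (log2 -0.24, SE 0.0717, edgeR adjusted p 0.00867). Per base of exon, the Ripk3 to Ripk1 ratio was 5.05 ± 0.718 with IFN-γ, 3.44 ± 0.112 in LE+IFNy, 4.61 ± 0.334 in SE+IFNy and 6.36 ± 0.247 in PE+IFNy (SD, n = 3), beside 3.03 ± 0.253 with PBS. The LE+IFNy values (3.34 to 3.56) were thus apart from those of the other IFN-γ groups (4.25 to 6.57).

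Mlkl, the effector, was lower with PE and higher with SE, both under the fold minimum. It was at 47.5, 44.5 and 45.7 CPM in PE+IFNy, below every library with IFN-γ alone (log2 -0.29, SE 0.0594, edgeR adjusted p 0.0101). With SE it was at 65.7, 61.7 and 62.0 CPM (log2 0.17, SE 0.0585, edgeR adjusted p 0.0314), and with LE at 62.6, 61.4 and 61.2 CPM (log2 0.13, 95% interval 0.00324 to 0.249, edgeR adjusted p 0.0814). The Mlkl to Ripk3 ratio per base was 0.803 ± 0.0487 in LE+IFNy, 0.743 ± 0.0298 in SE+IFNy and 0.464 ± 0.00295 in PE+IFNy, around 0.629 ± 0.115 with IFN-γ alone, whose replicate 2 reached 0.762.

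**Figure D2:**
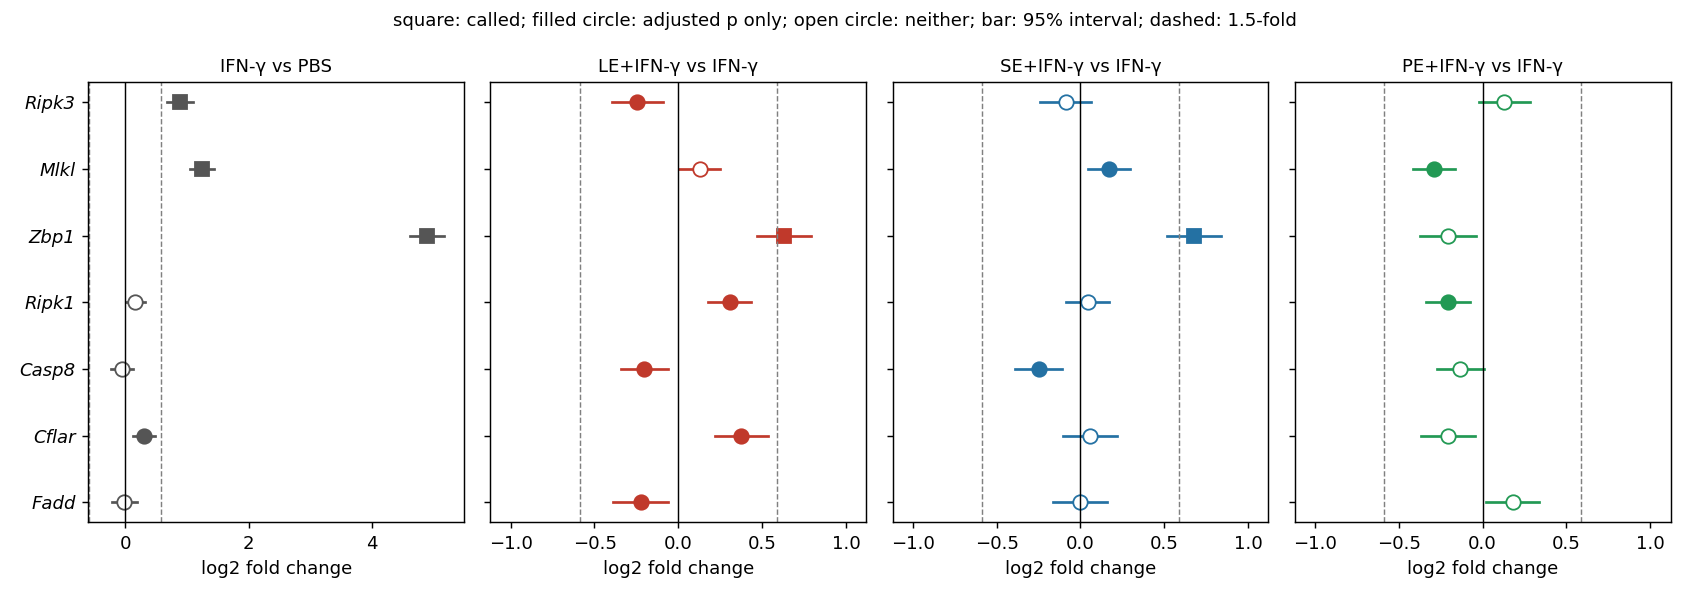
Log2 fold change of each gene (horizontal axis, on a wider scale in the first panel) for IFN-γ against PBS and for each peptide with IFN-γ against IFN-γ alone, with the 95% interval as a bar and dashed lines at a 1.5-fold change. Squares mark called genes, which are Zbp1, Mlkl and Ripk3 in the first panel and Zbp1 in the panels of LE and SE, and filled circles mark genes past the p threshold with a smaller fold change.

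In the arm that restrains necroptosis, LE was followed by more Cflar and less Casp8 and Fadd transcript, all by less than the fold minimum. Cflar was at 185, 162 and 168 CPM in LE+IFNy, above the IFN-γ libraries (144, 139 and 119 CPM, log2 0.37, SE 0.0756, edgeR adjusted p 0.000485). Casp8 was at 48.3, 49.7 and 48.3 CPM against 56.3, 52.4 and 61.6 CPM (log2 -0.20, SE 0.0666, edgeR adjusted p 0.016). Fadd was at 17.6, 19.2 and 17.3 CPM against 20.7, 21.3 and 22.0 CPM (log2 -0.23, SE 0.0774, edgeR adjusted p 0.0213). With SE, Casp8 was at 48.5, 44.2 and 48.1 CPM (log2 -0.25, SE 0.0669, edgeR adjusted p 0.0078), while Cflar and Fadd had log2 fold changes of 0.06 and -0.00461 (95% intervals -0.103 to 0.217 and -0.166 to 0.157). With PE none of the 3 passed the p threshold, while Ripk1 did (log2 -0.20, SE 0.0617, edgeR adjusted p 0.0433). All genes in the length class of Ripk1 had a median log2 fold change of -0.12 there. How far this trend enters the Ripk1 value was not tested.

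The Cflar to Casp8 ratio per base describes the same values within a library. It was 0.420 ± 0.0203 with PBS, 0.543 ± 0.0898 with IFN-γ, 0.512 ± 0.0622 in PE+IFNy, 0.667 ± 0.0214 in SE+IFNy and 0.806 ± 0.0661 in LE+IFNy. The 3 LE+IFNy libraries (0.745 to 0.876) were above all of the other 21. In the comparison of LE+IFNy with IFN-γ the median log2 fold change of all genes was 0.13 in the longest length class and -0.10 in the class of Ripk3, Mlkl and Casp8. Cflar and Ripk1 were 0.25 and 0.18 above their class median. Mlkl was 0.23 above that of its class, while Ripk3 stood at -0.14 and Casp8 at -0.10 from it. Zbp1 was 0.67 above its own class median (-0.04), and Fadd, in the same class, stood at -0.19 from it. The part of the length trend in these ratios was not tested.

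**Figure D3:**
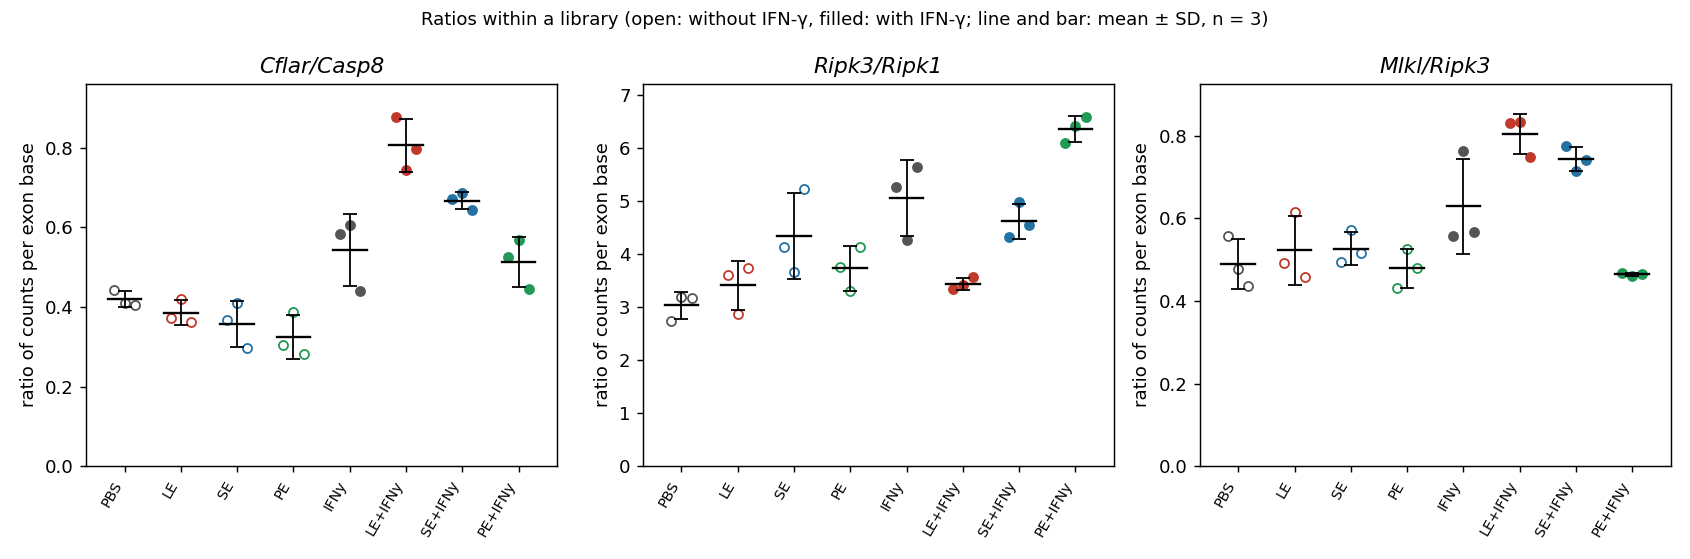
Ratio of 2 members within a library, in counts per base of merged exon, for Cflar to Casp8, Ripk3 to Ripk1 and Mlkl to Ripk3 (vertical axes from 0) in the 8 groups, with the mean ± SD of 3 libraries. LE+IFNy has the highest Cflar to Casp8 ratio (0.745 to 0.876) and the lowest Ripk3 to Ripk1 ratio of the groups with IFN-γ (3.34 to 3.56).

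The peptides were also compared directly in the presence of IFN-γ, which made 3 pairs with p adjusted over all genes within each. They are peptides of 1 length from the same residues, so these contrasts compare allelic versions of 1 stretch. Between LE and SE the log2 difference was -0.05 for Zbp1 (95% interval -0.204 to 0.109) and -0.04 for Mlkl (-0.167 to 0.0775). None of 7 members was called between them by edgeR (4.93% of all genes), with 4 members at an unadjusted p under 0.05, and 3 passed the adjusted p threshold alone (35.6% of all genes). Cflar (log2 0.32, SE 0.0755, edgeR adjusted p 0.0038) and Ripk1 (0.26, SE 0.0606, 0.00298) were higher with LE, and Fadd was lower (-0.22, SE 0.0773, 0.0338), all under the fold minimum. In the length class of Cflar and Ripk1 the median of all genes was 0.16 for LE against SE. How far this length trend enters the Cflar and Ripk1 values was not tested.

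Against PE, Zbp1 was called as higher with LE (1.79-fold, log2 0.84, SE 0.077, edgeR adjusted p 7.44e-08) and with SE (1.85-fold, log2 0.88, SE 0.077, edgeR adjusted p 1.51e-07). It was 1 of 7 members in either contrast, beside 21.6% and 7.59% of all genes, and the p threshold alone was passed by 6 and 5 of 7 members, beside 59.9% and 34.4% of all genes. LE against PE gave 5 further members past the p threshold, Cflar (log2 0.58), Ripk1 (0.51) and Mlkl (0.41) higher and Fadd (-0.40) and Ripk3 (-0.37) lower. The Cflar value lies at the fold minimum, and it was called with RLE scaling and with DESeq2 (both 0.59) and without replicate 2 (0.70). SE against PE gave Mlkl (0.46), Cflar (0.26) and Ripk1 (0.25) higher and Ripk3 (-0.22) lower past the p threshold. The median of all genes in the length class of Cflar and Ripk1 was 0.26 for LE against PE and 0.09 for SE against PE.

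**Figure D4:**
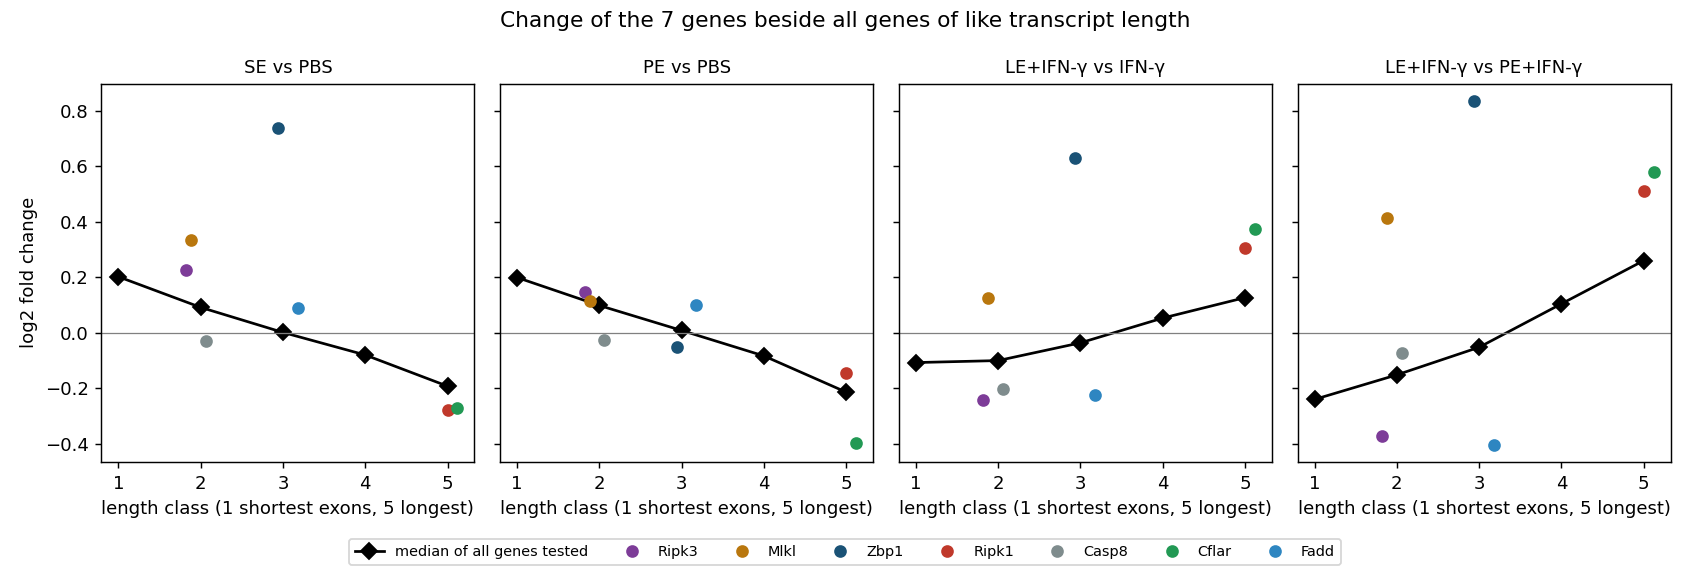
Log2 fold change of the 7 genes (coloured points, shifted sideways for legibility) at their class of merged exon length (horizontal axis, 1 shortest to 5 longest), over the median of all genes tested in each class (black diamonds), for 4 comparisons. Cflar and Ripk1 sit in the longest class, where the medians were -0.19 and -0.21 for SE and PE against PBS and 0.13 and 0.26 for LE+IFNy against IFN-γ and against PE+IFNy, and Zbp1 stands off the line in every panel but that of PE against PBS.

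Model B asks what IFN-γ does in cells that also have a peptide. Zbp1 and Mlkl rose in all 3 settings. Zbp1 rose 31.9-fold with LE, 28.3-fold with SE and 26.5-fold with PE (log2 5.00, 4.82 and 4.73, with SE 0.157, 0.154 and 0.171), and Mlkl 2.19-fold, 2.09-fold and 1.77-fold. The third gene called differed, being Cflar with LE (95.5 ± 4.64 to 172 ± 12 CPM, 1.77-fold, log2 0.82, edgeR adjusted p 1.43e-07) and with SE (86.7 ± 11.1 to 137 ± 5.20 CPM, 1.54-fold, log2 0.62, edgeR adjusted p 1.01e-05), and Ripk3 with PE (52.1 ± 2.52 to 98.5 ± 2.66 CPM, 1.82-fold, log2 0.87, edgeR adjusted p 3.93e-08). That made 3 of 7 members in each, beside 35.1%, 26.3% and 21% of all genes. By the p threshold alone it was 7, 6 and 5 members, beside 65.9%, 57.5% and 49.9% of all genes. Without replicate 3 Cflar lost its call with SE (0.55) and Ripk3 gained one there (0.69). Ripk3 with LE and SE (0.50 and 0.56) and Cflar with PE (0.48) passed the p threshold, so the third gene differed only by the fold minimum. The median of all genes in the length class of Cflar was 0.23 with LE, 0.13 with SE and 0.05 with PE. The part of the length trend in these calls was not tested.

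Members past the p threshold but under the fold minimum in Model B were Ripk1 and Ripk3 with LE (log2 0.48 and 0.50) and with SE (0.47 and 0.56), and Cflar with PE (0.48). Casp8 was lower in all 3 (-0.25, -0.29 and -0.17), and Fadd with LE (-0.30). Casp8 was the least variable of the 7 across the libraries, between 44.2 and 61.6 CPM, a 1.40-fold range, with Fadd next (17.3 to 24.9 CPM, 1.44-fold).

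Whether a peptide changed the size of the IFN-γ effect was tested as an interaction in a fit of all 8 groups. None of 7 members was called by edgeR for LE (18.9% of all genes), SE (7.96%) or PE (0%), with 4, 4 and 1 members at an unadjusted p under 0.05. The adjusted p threshold alone was passed by 3 members for LE (38.5% of all genes), 1 for SE (19.8%) and 0 for PE (0%). For LE they were Cflar (log2 0.52, SE 0.13, edgeR adjusted p 0.00285) and Ripk1 (0.32, SE 0.0914, 0.00785), whose IFN-γ change was larger, and Ripk3 (-0.39, SE 0.132, 0.021), whose change was smaller. For SE it was Ripk1 (0.32, SE 0.092, 0.017). The median interaction of all genes in the longest class was 0.26 for LE and 0.16 for SE, and the Ripk1 values were 0.06 and 0.15 above these. For Zbp1 the interaction was 0.10 with LE (95% interval -0.423 to 0.616) and -0.07 with SE (-0.56 to 0.422).

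The rest of the pathway was described from 5 lists. Among 22 genes of the TNF receptor complex and its ubiquitin and kinase checkpoints, 0 were called higher and 3 lower with IFN-γ, beside 18.1% of all genes called in either direction. Over the 73 genes tested in the 5 lists 17 were called for IFN-γ, 7 for LE, 2 for SE and 0 for PE in Model A, where the shares of all genes were 15.5%, 7.39% and 0.629%, and nothing particular to a list is read from its count. The 3 genes of the TNF receptor list called lower with IFN-γ were Tnfaip3, which encodes the ubiquitin-editing enzyme A20 (log2 -0.86, SE 0.135, edgeR adjusted p 0.000408), the kinase Ikbke (-0.85) and the apoptosis inhibitor Xiap (-0.61). In Model A 3 genes of this list were called higher with LE, 1 with SE and 0 with PE, and 0 lower with each peptide. Tnfaip3 was at 10.1, 10.3 and 8.44 CPM with IFN-γ and at 27.0, 25.1 and 29.8 CPM in LE+IFNy (log2 1.52, SE 0.12, edgeR adjusted p 1.75e-08) and 25.7, 19.1 and 24.5 CPM in SE+IFNy (log2 1.29, SE 0.121, edgeR adjusted p 2.83e-07). In PE+IFNy it stayed at 9.27, 11.1 and 8.48 CPM. Xiap (0.83) and the TNF receptor Tnfrsf1b (0.70) were the others called with LE.

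Among 15 death receptors, ligands and other inputs, 13 were tested, and 4 were called higher and 1 lower with IFN-γ. The death receptor Fas rose from 6.79 ± 1.82 to 14.5 ± 1.07 CPM (log2 1.11), Tnf from 37.0 ± 7.24 to 58.8 ± 5.93 CPM (log2 0.68) and Lta, a TNF relative, from 0.388 ± 0.0955 to 1.69 ± 0.150 CPM (log2 2.12), all with n = 3. Ticam1, the TLR adaptor that can bind Ripk1 and Ripk3, also rose (0.61), and the receptor chain Ifngr2 fell by 0.64 on the log2 scale. In Model A Tnf rose again with LE, to 126, 114 and 135 CPM (log2 1.10, SE 0.0767, edgeR adjusted p 4.24e-09), and Ticam1 with LE (0.61) and SE (0.67). No gene of this list was called with PE.

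Among 16 genes of apoptosis execution and the mitochondrial step, 3 were called higher and 2 lower with IFN-γ. Among those that rose were the anti-apoptotic Bcl2l1 (log2 0.87) and Bcl2a1b (0.65, 1 of several near-identical copies, whose uniquely mapped counts are uncertain). Mcl1, also anti-apoptotic, fell from 493 ± 20.1 to 227 ± 15.2 CPM (log2 -1.10, SE 0.0717, edgeR adjusted p 3.88e-07), and the apoptosome scaffold Apaf1 fell by 0.71. Model A gave 1 call, Bid, the Casp8 substrate, which was lower with LE (176, 205 and 170 to 118, 126 and 110 CPM, log2 -0.62). The peptides alone gave 1 call in the 5 lists, Apaf1 with PE (-0.64).

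Of 17 regulators of the necrosome and MLKL, 1 was called with IFN-γ, the ubiquitin ligase Peli1 (log2 0.88), and in Model A it was called again with LE (0.75). Between LE and PE with IFN-γ, Peli1 (0.90) and the chaperone Hsp90aa1 (0.62) were called higher and the membrane scaffold Flot1 lower (-0.61), beside 21.6% of all genes. In Model B Peli1 was called higher with LE, SE and PE (1.93, 1.63 and 1.28) and Flot1 lower with LE (-0.72). The shares of all genes called there were 35.1%, 26.3% and 21%. Other lists also had called genes in these comparisons, which are not named here. Of 7 pyroptosis genes 5 were tested, and Casp1 (1.35), Casp4 (1.32) and Nlrp3 (0.84) rose with IFN-γ, with 0 calls in Model A. The median log2 fold change with IFN-γ was 0.02 in the TNF receptor list, 0.41 in the inputs, 0.07 in apoptosis, 0.00354 in the necrosome regulators and 0.84 in pyroptosis, beside 0.30 in the 7 members and -0.00871 over all genes tested.

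**Figure D5:**
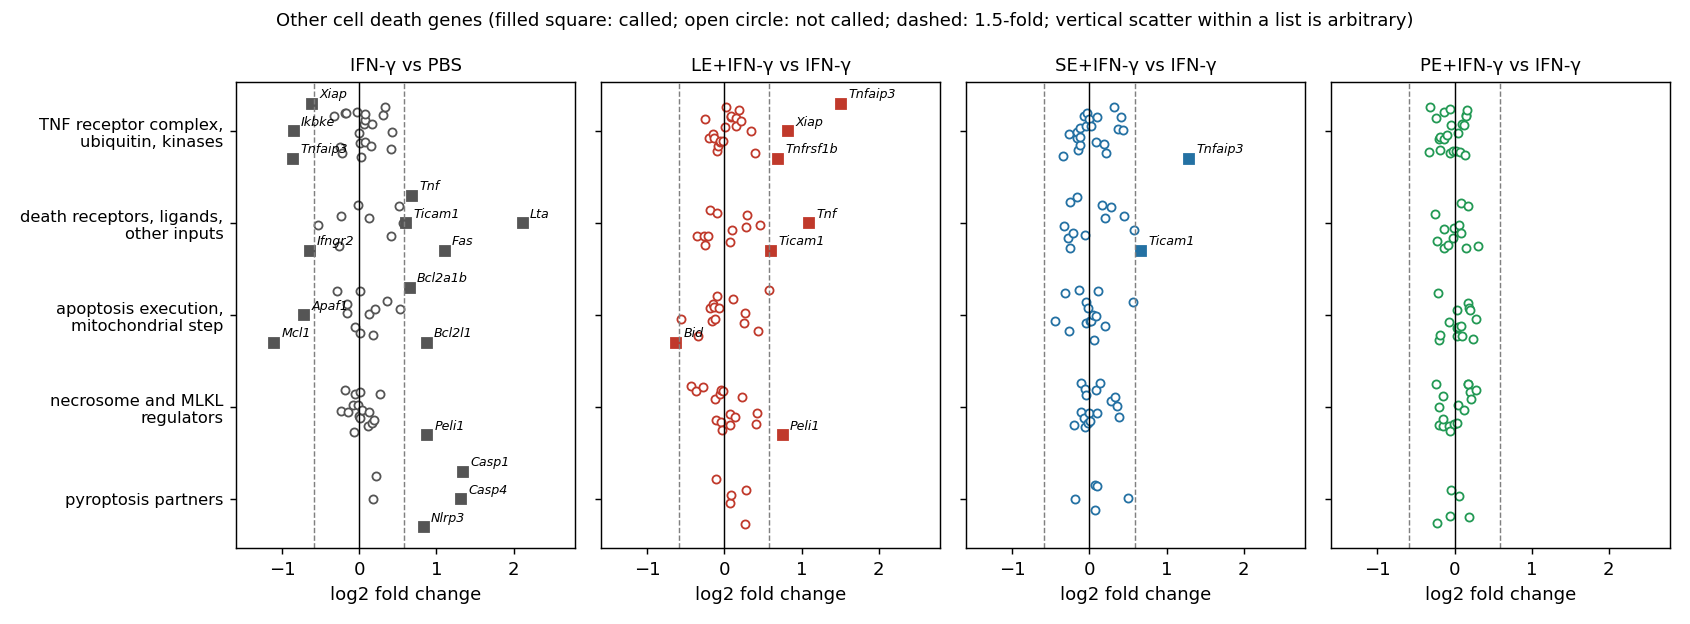
Log2 fold change (horizontal axis) of the tested genes of the 5 lists, with 1 gene of the apoptosis list left out, for IFN-γ against PBS and for each peptide with IFN-γ against IFN-γ alone. Filled squares with a name are called genes, open circles are not, dashed lines mark a 1.5-fold change, and the PE panel has 0 named genes.

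The genes whose level was most like that of each member were sought among 8632 genes by Pearson's r of log2(CPM + 1) over the 24 libraries. These points share groups and libraries, so r is a description. Zbp1 was closest to Sp140 (0.995), Gbp2 (0.995) and Serpina3f (0.995), and Mlkl to Slc11a1 (0.982), C3ar1 (0.981) and Zbp1 itself (0.981). Ripk3 was closest to Cd74 (0.977), Slc7a7 (0.975) and Nubp1 (0.973). Cflar was closest to Klf6 (0.986), Ints6 (0.985) and Itsn2 (0.981), and Ripk1 to Rbm33 (0.952), Lin54 (0.945) and Zbtb44 (0.942). Casp8 (Skap2 at 0.900) and Fadd (Pqlc2 at 0.793) had the weakest nearest genes. Among the members the pair of Ripk1 and Cflar had an r of 0.922, Ripk3 and Zbp1 of 0.913, and Ripk3 and Ripk1 of 0.445.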

How the data were processed

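RAW264.7 cells were profiled in 48 mRNA libraries, 6 in each of 8 groups by GEO's labels. The authors made stranded poly(A) libraries, read them single-ended, counted uniquely aligned reads with featureCounts on GENCODE M12 and tested them with DESeq2 1.16.1 in R 3.4.1. The aligner is not given in the sources used here. The deposited values are raw counts per gene, with 16.5 M to 26.9 M per letter-labelled and 14.1 M to 42.6 M per HLA-labelled library. Of the gene names, 26 look like dates, and 4 lines carry repeated names. These stayed in the totals.

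Counts were tested with edgeR 4.0.16 (TMM scaling, filterByExpr, quasi-likelihood F test, Benjamini-Hochberg over all genes tested) in R 4.3.3. IFN-γ against PBS was fitted on those groups, peptides against PBS on 4 groups, Model A and the direct peptide contrasts on the 4 groups with IFN-γ, Model B on 6 and interactions on all 8. The standard error is the log2 fold change over the square root of F. On simulated counts for IFN-γ against PBS (12216 genes), 92% of genes changed 1.5-fold and 100% of those changed 2-fold passed the adjusted p threshold. The changed genes were drawn above a low CPM cut, and all genes were given the same dispersion. The fold minimum was not applied, so these shares do not give the rate at which genes would be called. RPKM uses merged exon lengths of GENCODE M21, a later release on the same assembly.

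The 7 genes are named throughout. Of each list, up to 3 called genes per direction with the largest change are named for a comparison, and for each member the 3 genes of at least 10 CPM with the highest r (1 for Casp8 and Fadd). Of these, 1 called gene of the apoptosis list is not reported here. Ticam1 is named for IFN-γ after its value was seen. The members and lists were chosen with earlier results of these data known. A change of direction between settings was counted only for a called value. Replicate pairs differed by at least 3.89 in chi-square per degree of freedom, so each library counted as 1 sample. A legend of the study gives biological replicates, but whether the 3 letter-labelled ones are separate cultures is not stated, and p-values measure only the spread between them. Samples of equal number deviated together in the 3 pairs of IFN-γ against PBS (r 0.143 to 0.167). Among the peptides alone and PBS the median r of these deviations was 0.23 for equal and -0.12 for different numbers. Single pairs of equal number there ran from -0.25 to 0.39. Of 24 libraries, 18 deviated most like a library of their own number in another group. The main fits held no replicate term, so the replicate block was fitted as an alternative. It left 3 members called for IFN-γ against PBS.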

Additional observations from a re-analysis of the deposited data

Results flagged for a closer look

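The response of 3 genes to IFN-γ differed between PBS and peptide cells in the interaction test, all under the fold minimum. The adjusted p threshold alone was passed by 38.5% of all genes for LE and 19.8% for SE. The median interaction in the length class of Cflar and Ripk1 was 0.26 for LE and 0.16 for SE. In the class of Ripk3 it was -0.17 for LE, and the part of this trend in the values was not tested. With LE the log2 difference was 0.52 for Cflar, 0.32 for Ripk1 and -0.39 for Ripk3, and with SE it was 0.32 for Ripk1 (edgeR adjusted p 0.00285, 0.00785, 0.021 and 0.017). Without replicate 2 the Cflar value was 0.61 and was called. With LE alone Cflar was at 95.5 ± 4.64 CPM and with LE and IFN-γ at 172 ± 12 CPM, beside 110 ± 6.85 and 134 ± 13.2 CPM in the cells without peptide (SD, n = 3).

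The HLA-labelled libraries entered no comparison of the report, and in those labelled LE or PE without IFN-γ the 3 IFN-γ-responsive members were above the HLA-labelled PBS libraries. Mean levels in LE and PE were 45.3 and 49.8 CPM for Ripk3 (PBS 27.6 CPM), 88.0 and 74.6 CPM for Mlkl (PBS 39.0 CPM) and 92.7 and 69.9 CPM for Zbp1 (PBS 2.36 CPM). The IFN-γ target score of these 6 libraries was 6.55 to 6.74, that of the 6 libraries labelled IFNy or SE+IFNy 2.22 to 2.37, and Zbp1 in the latter was 1.02 to 1.63 CPM. The order of the table's columns places all 24 HLA-labelled libraries with other groups than their labels do. By that order, libraries placed after letter columns without IFN-γ had a score of 2.22 to 2.50. Those placed after letter columns with IFN-γ had a score of 6.14 to 6.74. The member levels given here therefore hold for the labels only, and which grouping is right was not tested.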

How the results depend on the processing

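The 112 values (7 genes in 16 comparisons) were recomputed under 12 other settings, of which the HLA-labelled series alone was added after the data were seen. The replicate block changed none of the calls. DESeq2 gave an adjusted p for 100 of the values. Counts of called members moved for LE against PE with IFN-γ (2 with RLE scaling and with DESeq2, 1 to 2 when leaving out a replicate number), SE against PBS (1 in a fit of 8 groups), the LE interaction (0 to 1 when leaving out a replicate number) and Model B with SE (3 to 4). Ripk3 (0.59) was called in the latter without the low-count filter, and Ripk1 (0.59) without replicate 2. Ripk1 and Mlkl with SE against PBS and Cflar with PE against PBS each lost the adjusted p threshold without some replicate (adjusted p up to 0.267, 0.333 and 0.25).

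Without a fold minimum the counts were 2 for SE and 1 for PE against PBS, 6, 3 and 2 for LE, SE and PE in Model A, 3, 6 and 5 for LE against SE, LE against PE and SE against PE, 7, 6 and 5 in Model B, and 3 and 1 in the interactions of LE and SE. With both series pooled, where at most 1.89% of all genes were called in any comparison, 0 members were called for IFN-γ, Model A with LE and SE, LE and SE against PE and Model B, and the log2 values of Zbp1 for SE against PE (-0.11) and Mlkl in Model B with LE (-0.043) turned. With the series as a term these counts were also 0 except for Model A with LE (7.51% of all genes called). The share of all genes was at most 6.15% in those comparisons with 0 members. In that setting 2 members were called for LE (8.14% of all genes) and 1 for PE (6.76%) against PBS. Zbp1 turned there for PE against PBS (3.03), LE against PE (-0.18) and SE against PE (-1.67).

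In the HLA-labelled series alone, where 12 of 24 libraries go against their label and the column order gives other groups, values hold only if the labels are right. There, 0 members were called for IFN-γ, Model A with SE, LE against PE and Model B with SE, 3 for LE and PE against PBS, for Model A with LE and PE, for LE against SE and for SE against PE, and 1 in the LE interaction. The shares of all genes were at most 0.145% in the 4 comparisons named here with 0 members and 13.4% to 28.6% in the others named. The turned values there were, for Zbp1, -0.73 (IFN-γ), 4.91 (PE against PBS), -0.33 and 4.95 (Model A with SE and PE), 4.83, -0.44 and -5.28 (LE against SE, LE against PE, SE against PE), -1.62, -0.77 and -0.70 (Model B) and -0.88 (LE interaction). For Mlkl they were -0.37 (IFN-γ), 1.17 (Model A with PE), 0.70 (LE against SE), -0.98 (SE against PE) and -0.75, -0.12 and -0.18 (Model B), for Ripk3 0.77 (Model A with LE), 1.05 (LE against SE) and -0.090 (Model B with PE), and for Cflar -0.047 and -0.24 (Model B with LE and SE). These values turned by sign, and some did not pass the adjusted p threshold. Those were Zbp1 and Mlkl for IFN-γ, and Zbp1 for Model A with SE and for LE against PE. In Model B they were Cflar with LE, Zbp1, Mlkl and Cflar with SE, and Mlkl and Ripk3 with PE. The cause of the turned values was not tested. Zbp1 had 22 to 87 counts per library without IFN-γ, against 1006 to 2203 with it.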

Other observations

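The level of the members differed between the HLA-labelled and the letter-labelled libraries. For Ripk1 (88.4 to 131 against 43.5 to 83.3 CPM) and Fadd (6.07 to 13.9 against 17.3 to 24.9 CPM) the series did not overlap. The ranges of the other 5 overlapped, for Cflar only at their ends (184 to 320 against 65.3 to 185 CPM). Median levels were 264 against 111 CPM for Cflar, 37.6 against 68.0 CPM for Ripk3, 49.4 against 38.4 CPM for Mlkl, 17.4 against 23.6 CPM for Zbp1 and 52.4 against 53.6 CPM for Casp8.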
